A study of Mus musculus with 16 samples.

Results

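The short noncoding RNAs 7SK, 7SL and RNase P RNA, all transcripts of RNA polymerase III (Pol III), were followed in mouse brain together with gene copies of 7SK and 7SL. The 10 genes are Rn7sk, Rn7s1, Rn7s2, Rn7s6, Rpph1, Gm24146, Gm26035, Gm24447, Gm24514 and Gm23973, or 10 of the 40481 genes listed and 10 of the 586 listed with the biotype misc_RNA or ribozyme. The 10 were chosen by name from earlier results of the same adropin against saline contrast, and they are also the only misc_RNA or ribozyme genes among the 14949 genes that passed the filter on low counts. Their group difference is therefore given below as a description, and nothing is read from a test of it. RNA was measured in brain tissue of male C57BL mice (male sex and the C57BL/6J strain per the methods) bought at 18 months of age. A group of 8 mice received adropin(34-76), the putative secreted part of the peptide encoded by Enho, at 90 nmol/kg/d by a daily intraperitoneal injection. A control group of 8 mice received the saline diluent. Treatment lasted 1 month per the study. All 16 mice went through behavioral testing and a 6 h fast before the brain was taken, and each mouse gave 1 library.

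Pol III makes short RNAs that carry out basic tasks in every cell. The 7SK RNA (Rn7sk) holds the elongation kinase P-TEFb inactive in a particle with the proteins Hexim1, Larp7 and Mepce, and so restrains RNA polymerase II. The 7SL RNA (Rn7s1 and Rn7s2) is the scaffold of the signal recognition particle, which brings ribosomes making secreted proteins to the endoplasmic reticulum, and the RNase P RNA (Rpph1) is the catalytic part of the enzyme that trims the 5′ end of tRNA precursors. Genomes also hold many copies derived from 7SK and 7SL. None of these RNAs normally carries a long poly(A) tail, whereas per the labels the libraries were made from RNA selected with oligo-dT beads.

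Total counts per library were 35185051 to 70314050 in the adropin group and 35026503 to 47245785 in the saline group, with medians of 41190462 and 41497897.5. The 10 members together took 0.00686% to 0.0333% of the counts in the adropin group and 0.00588% to 0.0139% in the saline group. The adropin mice 1_3 and 5_5 (named by the number pair in their labels) had the 2 largest libraries and the 2 largest member shares, 0.0333% and 0.0263%. Values without these 2 mice, an alternative chosen after seeing the data, are therefore given beside the results on the members. The 5 neuron markers averaged 268 to 2770 CPM, where CPM is the count per 1e+06 of a library's total scaled by edgeR's TMM factor. The summed 5 choroid plexus markers spanned 11.1 to 73.4 CPM in the adropin group and 12.6 to 2460 CPM in the saline group, all 5 were lower in the adropin group with an unadjusted p below 0.05 in edgeR's quasi-likelihood test, and their part in the results below was not tested. In bulk tissue, fewer cells of a type and less RNA per cell cannot be told apart.

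The sequences place 9 of the members in 2 families. Rn7sk (331 bases, chr9:78175303-78175633 on the minus strand, GRCm38) was taken as the reference for Gm24447, Gm26035, Gm23973 and Gm24146, which lie on chromosomes 15, X, 7 and 5. Gm24447 matched Rn7sk over its first 241 bases with no difference. Over aligned stretches of 238, 233 and 236 columns, Gm24146 was 97.5% identical to Rn7sk, Gm26035 95.7% and Gm23973 96.2%. None of these 5 genes overlapped another annotated gene. The first 120 bases of Rn7sk and 3 of its copies are shown because they lie in the shared body. Capitals mark bases that differ from Rn7sk in the aligned stretch.
Rn7sk: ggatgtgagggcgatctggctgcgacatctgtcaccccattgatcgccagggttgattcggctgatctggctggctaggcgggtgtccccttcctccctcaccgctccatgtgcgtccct
Gm24447: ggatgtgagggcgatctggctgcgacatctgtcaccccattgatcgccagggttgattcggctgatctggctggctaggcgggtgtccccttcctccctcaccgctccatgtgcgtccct
Gm26035: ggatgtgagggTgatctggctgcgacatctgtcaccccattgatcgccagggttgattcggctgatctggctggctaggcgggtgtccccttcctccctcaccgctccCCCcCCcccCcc
Gm24146: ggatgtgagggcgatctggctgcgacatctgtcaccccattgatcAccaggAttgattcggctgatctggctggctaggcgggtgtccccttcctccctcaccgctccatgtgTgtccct

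All 4 copies left the Rn7sk sequence before its end, so each carried a 3′ tail of its own of 78 to 97 bases in place of the last part of Rn7sk. The stretch from base 201 to the end is shown because it holds the point where each copy leaves the Rn7sk sequence. Capitals mark the bases past the aligned stretch, and in Rn7sk the bases after base 241, where the match with Gm24447 ended.
Rn7sk: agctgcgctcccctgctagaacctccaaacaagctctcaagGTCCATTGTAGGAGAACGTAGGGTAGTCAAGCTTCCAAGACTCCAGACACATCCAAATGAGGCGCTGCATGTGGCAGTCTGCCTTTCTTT
Gm24447: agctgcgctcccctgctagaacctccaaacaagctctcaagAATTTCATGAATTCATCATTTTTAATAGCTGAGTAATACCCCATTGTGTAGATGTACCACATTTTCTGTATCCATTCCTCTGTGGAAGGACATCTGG
Gm26035: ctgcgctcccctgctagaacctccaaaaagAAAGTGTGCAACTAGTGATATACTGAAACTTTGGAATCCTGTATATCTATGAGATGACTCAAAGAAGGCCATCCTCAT
Gm23973: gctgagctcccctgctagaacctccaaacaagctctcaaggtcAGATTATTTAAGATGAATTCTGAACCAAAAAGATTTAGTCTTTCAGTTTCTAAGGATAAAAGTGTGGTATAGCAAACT
Gm24146: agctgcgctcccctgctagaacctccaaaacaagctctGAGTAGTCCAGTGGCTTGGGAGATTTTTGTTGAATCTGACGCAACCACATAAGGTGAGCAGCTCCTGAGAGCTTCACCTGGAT

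The 7SL family comprises Rn7s1 and Rn7s2 on chromosome 12 (chr12:69159295-69159594 plus and chr12:69361182-69361481 minus) with Rn7s6 on chromosome 6 (chr6:69516339-69516629 plus) and Gm24514. Rn7s1 and Rn7s2 were identical over all 300 bases. Rn7s6 (291 bases) differed from them at 3 of its first 214 bases and then continued in an unrelated tail of 77 bases. Gm24514 (285 bases) was 94.9% identical to Rn7s1 over 235 columns. Rn7s1, Rn7s2 and Rn7s6 overlapped 5 short genes annotated as miRNA.

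Rpph1 (319 bases, chr14:50807449-50807767 minus) stood apart from both families. It lay within an exon of Ccnb1ip1 annotated as untranslated region, and 73 bases separated its start from that of Parp2, a DNA repair enzyme on the opposite strand. This intervening stretch (chr14:50807768-50807840, GRCm38.p6, from the RefSeq promoter of Parp2) is shown in the direction of Rpph1, with capitals for a TATAA match on the other strand that began 33 bases before Rpph1.
Rpph1, upstream: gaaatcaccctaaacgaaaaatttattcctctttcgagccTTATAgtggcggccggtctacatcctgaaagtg
TATAA on either strand was present in 8.3% of the 32851 RefSeq promoters over the same 73 bases before the start. Parp2 itself had a log2 fold change of -0.10 ± 0.08 (SE, n = 8 per group, adropin over saline), with an adjusted p of 0.874 by edgeR's quasi-likelihood test. Rps29, a ribosomal protein gene 108 bases from Rn7s1, had -0.13 ± 0.12 with an adjusted p of 0.876 by the same test. Both neighbours were named after their values were seen.

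The shared bodies bear on how reads could be assigned, since the authors counted uniquely aligned reads. No window of 50, 100 or 150 bases in Rn7s1 or Rn7s2 was unique among the annotated transcripts of other genes, yet their mean counts per library were 482 and 557. In Rn7sk, 31.9% of windows of 50 bases and 49.5% of windows of 150 bases were unique. Gm24447 had 33.6% and 51.3%, and Gm23973 97.4% and 100%. The split of counts between Rn7s1 and Rn7s2, and between Rn7sk and Gm24447, is thus uncertain. The members' counts were even numbers in 112 of 160 cases (70.0%), against 50.2% of protein-coding gene counts in the same range. The methods name reads as the unit counted. The longest run of A within a member was 2 to 5 bases, beside a median of 4 over 588 misc_RNA and ribozyme transcripts.

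Rn7sk had the highest level of the members by assigned counts, also per length. Full length was used, while the share of unique windows of 150 bases ran from 0% in Rn7s1 and Rn7s2 to 100% in Gm23973. The order given here is therefore one of assigned counts and not of RNA amounts. The mean level of Rn7sk was 284 ± 169 CPM per kilobase in the adropin group and 144 ± 50.5 in the saline group (SD, n = 8 each). Rn7s2 was the next in order in both groups, at 52.9 ± 33.1 and 24.3 ± 6.71. The order was then Rn7s1, Gm24447, Rn7s6, Gm26035, Gm23973, Rpph1, Gm24514 and Gm24146 in both groups, down to 8.21 ± 4.27 and 3.95 ± 1.81 CPM per kilobase, and after Rn7sk the 1 pair of neighbours further apart than the larger of their SDs was Gm26035 and Gm23973. In CPM not divided by length, Rn7sk ranged from 33.2 (raw count 1205) over a median of 76.5 to 184 (raw count 12402) in the adropin group and from 29.8 (raw count 1028) over a median of 44.8 to 81.4 (raw count 3591) in the saline group. Mice 1_3 and 5_5 were the highest at 184 and 172 CPM, 4 of 8 adropin mice lay above every saline mouse, and the groups overlapped. The fitted log2 fold change was 0.98 ± 0.31 (SE), or 1.97-fold higher in the adropin group. It was 0.65 with log2 total counts as a covariate and 0.51, below a 1.5-fold change, with Gm42418, a gene described below, as a covariate.

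The 4 copies of 7SK had lower levels and a like pattern. Gm24447 ranged from 4.14 over a median of 11.6 to 26.0 CPM in the adropin group and from 4.54 over 6.83 to 13.7 CPM in the saline group. Gm26035 ranged from 3.42 over 7.15 to 12.9 CPM under adropin and from 2.62 over 4.06 to 7.84 CPM under saline. In both genes 4 of 8 adropin mice exceeded every saline mouse, and the lowest adropin mouse lay within the saline range for Gm26035 and below it for Gm24447. Gm23973 spanned 1.44 to 7.87 CPM under adropin and 1.16 to 4.26 under saline. Gm24146, the least abundant member by mean count at 91.6 per library, spanned 0.809 to 5.04 CPM and 0.743 to 2.40 CPM. The log2 fold changes were 0.89 ± 0.32 for Gm24447, 0.93 ± 0.29 for Gm26035, 0.82 ± 0.34 for Gm23973 and 1.06 ± 0.33 for Gm24146. Without mice 1_3 and 5_5 they were 0.41, 0.61, 0.36 and 0.68 in the same order, and Rn7sk had 0.47. The Gm42418 covariate gave 0.41, 0.52, 0.27 and 0.69, and the total count covariate gave 0.56, 0.70, 0.53 and 0.81.

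The 7SL RNAs stood out through mouse 1_3. The locus of Gm24514, not placed above, lies at chr18:55622636-55622920 (GRCm38, minus). Rn7s2 ranged from 7.26 over a median of 13.9 to 38.5 CPM in the adropin group and from 4.55 over 7.35 to 9.93 CPM in the saline group. Mouse 1_3 had 38.5 CPM and the next, mouse 5_5, had 19.1 CPM. The identical Rn7s1 ranged from 5.53 over 11.6 to 31.5 CPM under adropin and from 3.06 over 7.41 to 9.66 CPM under saline. In both genes 6 of 8 adropin mice lay above every saline mouse. Rn7s6 spanned 4.07 to 24.8 CPM and 3.06 to 7.53 CPM, and Gm24514 spanned 1.54 to 5.63 CPM and 0.743 to 1.97 CPM in the adropin and saline groups. The log2 fold changes were 1.13 ± 0.29 for Rn7s2, 0.94 ± 0.29 for Rn7s1, 0.89 ± 0.30 for Rn7s6 and 0.87 ± 0.26 for Gm24514. Without mouse 1_3, Rn7s6 had 0.54, which is below a 1.5-fold change, and it had 0.57 with the total count covariate. When the first label number was a block, Rn7s6 had 0.51 and Rn7s1 had 0.58, both below a 1.5-fold change. The contrast of that fit came only from mice 2_1, 2_3, 2_4, 5_3, 5_4, 5_5, 7_1 and 7_4, whose first number occurs in both groups. Without both mice 1_3 and 5_5 the values were 0.67 for Rn7s2, 0.52 for Rn7s1, 0.44 for Rn7s6 and 0.48 for Gm24514.

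Rpph1 had the highest fold change of the 10 with all mice included. It ranged from 1.35 (raw count 49) over a median of 3.12 to 11.5 CPM (raw count 775) in the adropin group and from 0.683 (raw count 27) over 1.75 to 2.84 CPM (raw count 131) in the saline group. Mouse 1_3 had the 11.5 CPM and mouse 5_5 had 5.90 CPM, and 5 of 8 adropin mice exceeded every saline mouse. The log2 fold change was 1.31 ± 0.41, or 2.49-fold. Without mice 1_3 and 5_5 it was 0.64, below Gm24146 (0.68) and Rn7s2 (0.67), and with Gm42418 as a covariate it was 0.81, below Rn7s2 (0.91). When the second label number was a block it was 1.03, beside 1.04 for Rn7s2. Mice 5_5 and 6_2 share their second number with no other mouse and carried none of that contrast.

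**Figure D1:**
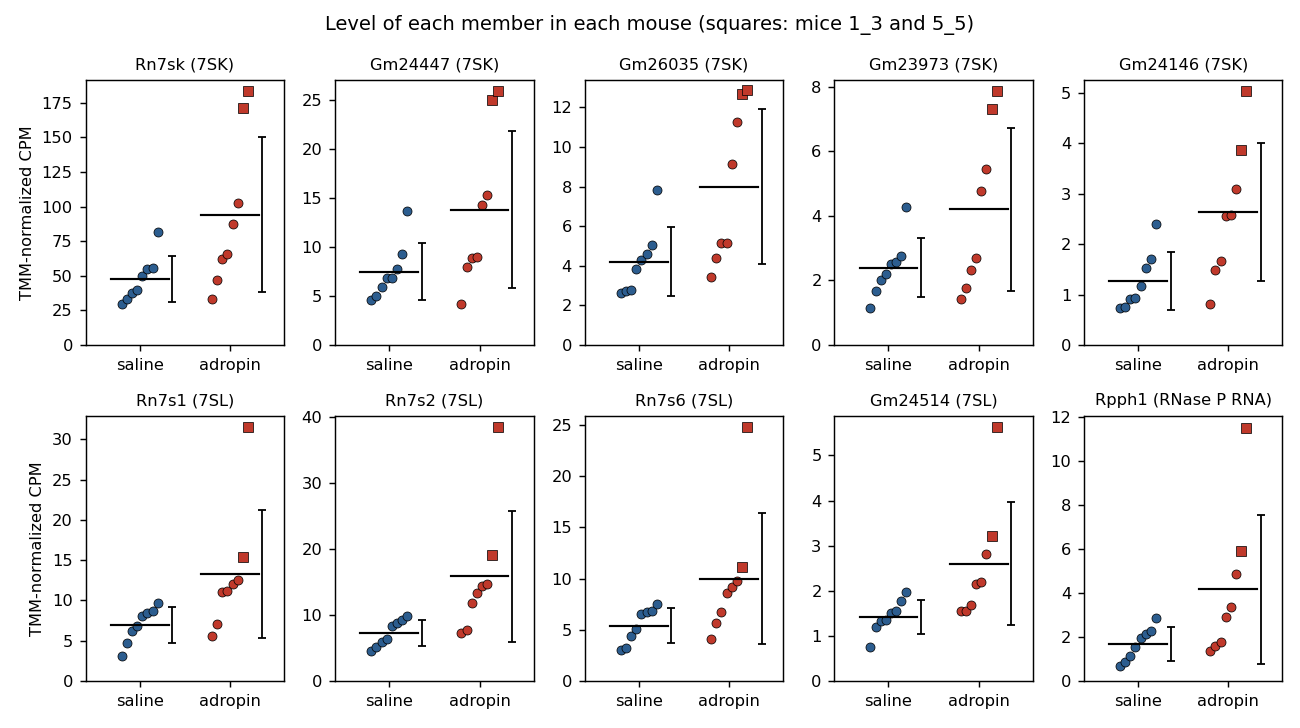
TMM-normalized CPM of each member (vertical axis, linear from 0) in the 8 saline and 8 adropin mice, 1 point per mouse, with the group mean (line) and SD (bar beside it). Mice 1_3 and 5_5 are drawn as squares and hold the 2 highest values of all 10 members, as with Rn7sk at 184 and 172 CPM, and the groups overlap in every panel.

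All 10 members passed a fold change above 1.5 with an unadjusted p below 0.05, where 17 of 14949 genes tested were increased by the same rule (0.114%); this is how they came to be listed, and nothing is read from it. Leaving out 1 mouse at a time, from 10 genes (without adropin mouse 1_3) to 48 (without saline mouse 5_3) were increased by the rule. The median log2 fold change of the members was 0.94, beside -0.002 over all genes tested. With Benjamini-Hochberg adjustment in edgeR's quasi-likelihood test, the smallest adjusted p over all genes was 0.387. The filter asked for more than 1 CPM in at least 7 mice, and 7 members met it in all 16 mice, Gm24514 in 15, Rpph1 in 14 and Gm24146 in 11. Gm24146 met it in 4 of the saline mice and Rpph1 in 6, so these 2 members passed the filter only with the adropin group. The next misc_RNA genes below the filter were Gm26461 and Gm22058, with mean counts of 42.9 and 41.7 per library and more than 1 CPM in 4 and 5 mice. Without mice 1_3 and 5_5, the median of the members was 0.50 (range 0.36 to 0.68), 2 of 10 (Gm24146 and Rn7s2) passed the rule and 4 of 14949 genes were increased by it. With the log2 total count as a covariate 7 members passed and the median was 0.65. With Gm42418 as a covariate 6 passed, the median was 0.68 and the lowest was Gm23973 at 0.27.

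Members of a family varied together across mice. With group means subtracted, Pearson's r over the 16 mice was 0.816 to 0.978 for the 10 pairs within the 7SK family and 0.819 to 0.961 for the 6 pairs within the 7SL family. The 20 pairs that joined a 7SK to a 7SL gene had 0.573 to 0.768, and Rpph1 had 0.746 to 0.862 with the other 9. These ranges were 0.718 to 0.962, 0.646 to 0.929, 0.352 to 0.622 and 0.603 to 0.792 without mice 1_3 and 5_5. These are descriptions, since members of a family share sequence and all share their libraries. Ratios of raw counts within a mouse were also taken. Gm24447 stood at 12.4% to 18.1% of Rn7sk with a median of 15.0%, while the CPM of Rn7sk itself varied 6.18-fold between mice. Gm26035 stood at 6.85% to 12.9% of Rn7sk, Gm23973 at 3.73% to 6.61% and Gm24146 at 1.73% to 4.48%. Rn7s2 was 94.9% to 149% of Rn7s1, Rn7s6 61.0% to 100% of it and Gm24514 13.9% to 43.8% of it. Between families, Rn7s1 stood at 7.75% to 26.4% and Rpph1 at 1.73% to 6.25% of Rn7sk. The highest Rpph1 ratio was 5.16% without mice 1_3 and 5_5, and the other ratios had the same ranges. The median of Gm24447 over Rn7sk was 14.5% in the adropin and 15.4% in the saline group, and that of Rn7s1 over Rn7sk was 15.0% and 13.8%.

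**Figure D2:**
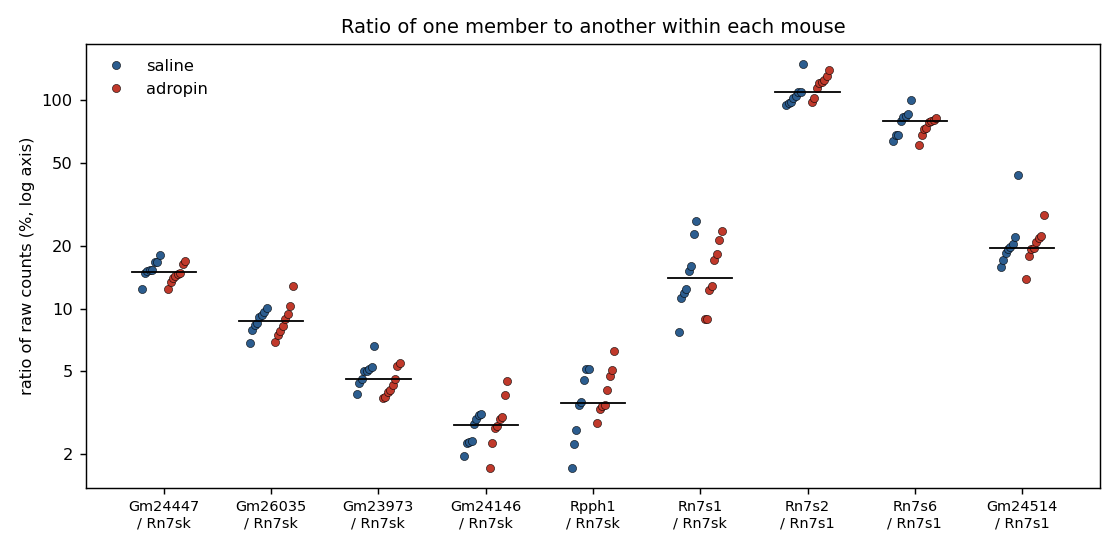
Raw count of one member as a percent of another (vertical axis, log scale) within each mouse, 1 point per mouse, with the median of all 16 as a line. Gm24447 spans 12.4% to 18.1% of Rn7sk, and Rn7s1 spans 7.75% to 26.4% of Rn7sk.

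The members were next compared with the library totals and with Gm42418, a long noncoding gene on chromosome 17 that overlaps a ribosomal RNA repeat. Gm42418 took 0.84% to 4.98% of the counts in the adropin and 0.985% to 3.26% in the saline group. Both measures belong to the rule by which the members were listed, and the high levels of mice 1_3 and 5_5, which have the 2 largest totals, entered that choice. The relations are therefore given as r with group means subtracted, as a description with no test. Over all 16 mice r with log2 total counts was 0.611 to 0.849. Rn7s2 had the highest r of 0.849 (Spearman's rho 0.759), and Rn7sk had 0.741 (rho 0.585). Over all genes tested the median r with total counts was 0.0723, and 0.485 was the 95th percentile. Mice 1_3 and 5_5 were also the 2 mice farthest from the median total, and without them r was 0.297 to 0.649. Within the adropin group alone, which holds these mice, r was 0.719 to 0.857. Within the saline group alone, which does not, it was 0.315 to 0.832, with 0.832 for Rn7s6 and 0.819 for Rn7s2.

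With Gm42418, the 5 members of the 7SK family had r of 0.767 to 0.880 over all 16 mice, with 0.857 (rho 0.856) for Rn7sk. Rpph1 had 0.646 (rho 0.671), and the 4 members of the 7SL family had 0.357 to 0.499. The difference between the families was not tested. Among the adropin mice alone the 7SK family had 0.752 to 0.886, Rpph1 0.722 and the 7SL family 0.417 to 0.549. Among the saline mice alone the values were 0.800 to 0.928, 0.476 and 0.221 to 0.384. Without mice 7_4 and 4_3, farthest from the median of Gm42418, the 7SK family had r of 0.809 to 0.861, Rpph1 0.557 and the 7SL family 0.258 to 0.409. Without mice 1_3 and 5_5, r was 0.769 to 0.947 in the 7SK family, 0.661 for Rpph1 and 0.277 to 0.485 in the 7SL family. Total counts and Gm42418 had r of 0.365 with each other. The median r with Gm42418 over all genes tested was 0.0105, and 0.614 was the 95th percentile.

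**Figure D3:**
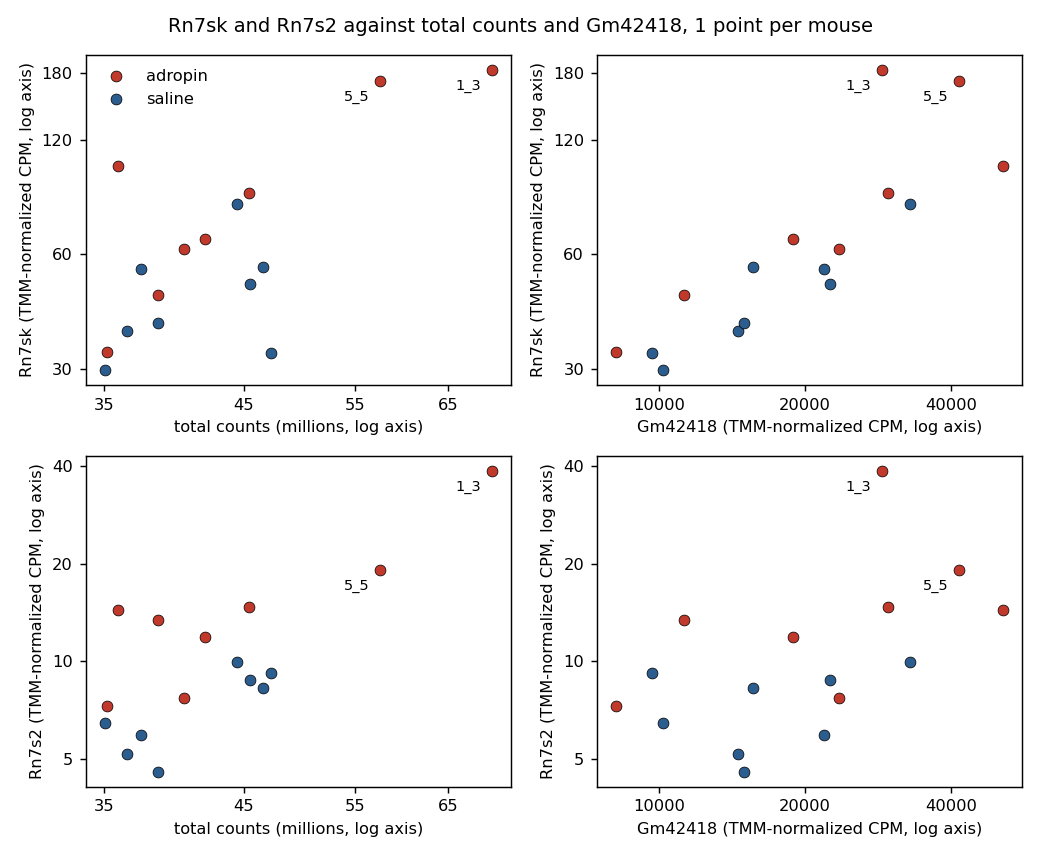
Rn7sk (top) and Rn7s2 (bottom) in TMM-normalized CPM against total counts (left) and Gm42418 in TMM-normalized CPM (right), all axes on log scales, 1 point per mouse, colored by group. Mice 1_3 and 5_5 lie far to the right on the total count axis, and r with Gm42418 (group means subtracted) is 0.857 for Rn7sk and 0.448 for Rn7s2.

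**Figure D4:**
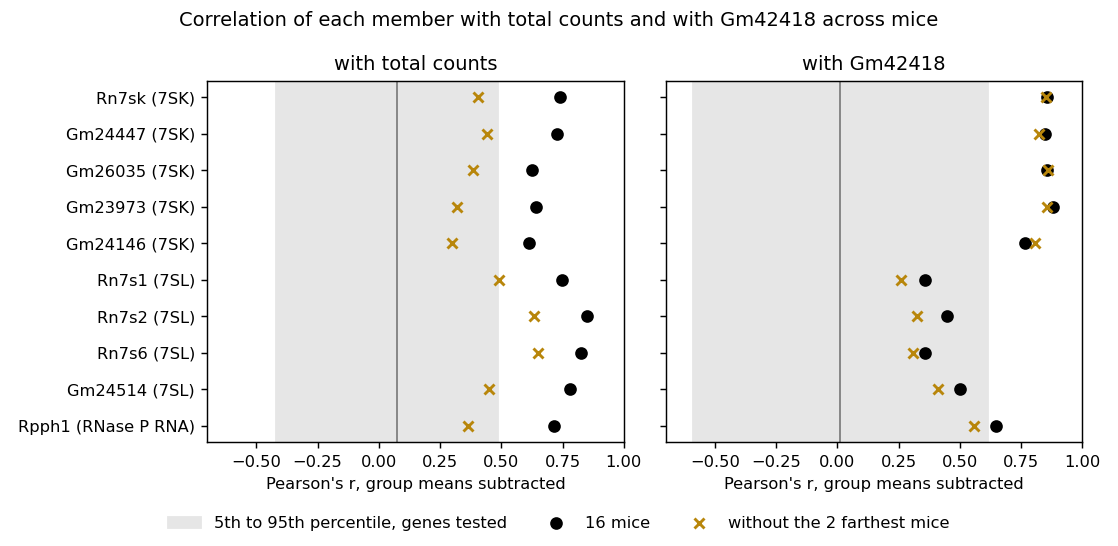
Pearson's r (horizontal axis, group means subtracted) of each member with total counts (left) and with Gm42418 (right) over 16 mice (circles) and without the 2 mice farthest from the median of that measure (crosses). The grey band spans the 5th to 95th percentile of all genes tested and the line their median; without the 2 mice, r with total counts fell to 0.297 to 0.649, and without mice 7_4 and 4_3, r of the 7SK family with Gm42418 was 0.809 to 0.861.

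The genes most like Rn7sk, Rn7s2 and Rpph1 across mice were looked up next. With group means subtracted, the 3 other tested genes with the highest r with Rn7sk were Lars2 (0.933), a mitochondrial leucyl-tRNA synthetase, Mir6236 (0.913) and Gm15564 (0.907), and Gm42418 ranked 11th. For Rn7s2 they were Tlr7 (0.753), Skida1 (0.746) and Srl (0.739), and Gm42418 ranked 660th. For Rpph1 they were Mroh6 (0.870), Gm24270 (0.852) and 1810013L24Rik (0.812), with Lars2 ranked 6th. The 95th percentile of r over other genes tested was 0.585 for Rn7sk, 0.435 for Rn7s2 and 0.404 for Rpph1. These r values are descriptions over 16 mice. Without mice 1_3 and 5_5, Rn7sk had r of 0.938 with Lars2, 0.904 with Mir6236 and 0.936 with Gm15564. Rn7s2 then had 0.933 with Tlr7, 0.445 with Skida1 and 0.721 with Srl, and Rpph1 had 0.828 with Mroh6, 0.791 with Gm24270 and 0.721 with 1810013L24Rik.

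Genes for the proteins that work with these RNAs differed little between the groups. Of 58 tested genes for proteins of the signal recognition particle, the 7SK particle and P-TEFb, RNase P and RNase MRP, the Pol III enzyme and its initiation factors, none had a fold change above 1.5 with an unadjusted p below 0.05, against 0.421% of all genes tested. None had an unadjusted p below 0.05 by edgeR's quasi-likelihood test either, where 3.99% of all genes tested did. By DESeq2, 1 of the 58, Hexim1, had one. Their log2 fold changes lay between -0.19 and 0.11, with a median of -0.04 and SEs of at most 0.13.

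Among 7SK partners, Hexim1, which inhibits the P-TEFb kinase, had 68.5 ± 3.31 CPM in the adropin and 73.5 ± 4.82 in the saline group, with a log2 fold change of -0.10 ± 0.05 and an adjusted p of 0.874 by edgeR's quasi-likelihood test. It had the smallest unadjusted p of the 58 genes, 0.0535. Cdk9, the kinase of P-TEFb, had -0.07 ± 0.08. Larp7, which binds the 3′ end of 7SK, had -0.04 ± 0.13, and Mepce, which caps its 5′ end, -0.04 ± 0.05. Among signal recognition particle proteins, Srp14 had the lowest value at -0.19 ± 0.12, and Srp68 and Srp72 had 0.01 ± 0.05 and 0.06 ± 0.05. Among RNase P proteins, Pop5 had -0.11 ± 0.11, Rpp25 0.01 ± 0.08 and Rpp25l -0.17 ± 0.11, the lowest of its list. Of the Pol III enzyme, the subunits Polr1d and Polr3k had -0.11 ± 0.11 and -0.07 ± 0.07. Of its factors, Gtf3c1, a subunit of TFIIIC, had 0.10 ± 0.08 and Maf1, the Pol III repressor, -0.04 ± 0.05. Ssb (La), which binds the 3′ ends of new Pol III transcripts, had -0.01 ± 0.05. Of 3 tested genes annotated over ribosomal RNA-like sequence, Lars2 passed the rule, with 1520 ± 750 CPM in the adropin and 963 ± 346 in the saline group, a log2 fold change of 0.66 ± 0.29 and an unadjusted p of 0.0374 (adjusted p = 0.874, edgeR's quasi-likelihood test). Lars2 had an unadjusted p of 0.05 or more in 13 of 28 alternative fits, 8 of them with 1 mouse left out. Its log2 fold change was 0.54 with limma-voom, 0.48 with total counts and 0.15 with Gm42418 as a covariate, 0.43 when the second label number was a block, and 0.36 without mice 1_3 and 5_5. With 1 mouse left out it was 0.55 without adropin mouse 1_3, 0.53 without 5_5 and 0.55 without 7_4, and 0.58, 0.60, 0.62, 0.62 and 0.61 without saline mice 2_3, 5_4, 6_1, 6_2 and 8_1. Besides Lars2 and Gm42418, the list's other tested gene was lower in the adropin group, with a log2 fold change of -0.15. In the same list and edgeR's quasi-likelihood test, Gm42418 had 0.58 ± 0.33 (adjusted p = 0.874). It had 1.21, with an unadjusted p below 0.05, when the first label number was a block. That contrast comes only from mice whose first number occurs in both groups. Gm42418 had 0.30 with the second number as a block and 0.38 without mouse 7_4. Its unadjusted p was also below 0.05 without adropin mouse 4_1 (0.70) or 4_3 (0.72) or saline mouse 5_3 (0.77).

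**Figure D5:**
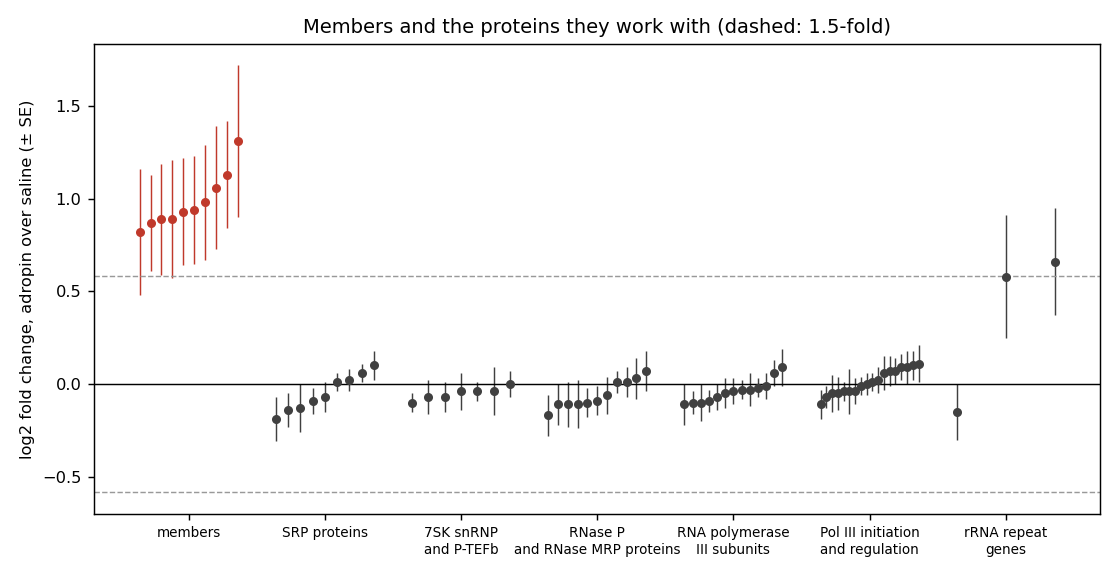
Log2 fold change of adropin over saline with its SE (vertical axis) for the 10 members and for the tested genes of each companion list, 1 point per gene, with dashed lines at a 1.5-fold change. The members span 0.82 to 1.31, which is how they were chosen, and the 58 protein genes lie between -0.19 and 0.11.

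Other Pol III RNAs were close to the limit of detection, and none was tested. Rmrp, the RNA of RNase MRP, had 25 counts in the adropin group as a whole, of which 13 were in mouse 1_3 and 6 in mouse 5_5, and 1 count in the saline group. The Y RNA Rny1 had 56 and 20 counts in the adropin and saline groups, with 16 and 14 of the 56 in mice 1_3 and 5_5. The vault RNA Vaultrc5 had 21 and 3, with 4 and 7 of the 21 in these mice. Rny3 had 6 counts in each group, all 6 of the adropin group in these mice, Rnu6 had 2 and 4, and Rn5s had 0, against the 3 counts that a count of 0 allows per group. These limits cover counting error only.

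Sequence also identified relatives that were not among the members. By a local alignment of at least 100 bases at 80% identity or more, 39 listed genes belonged to the 7SK family and 12 to the 7SL family. The members held 98.3% of the 7SK counts and 96.5% of the 7SL counts. The summed 34 other 7SK genes spanned 1.21 to 2.87 CPM in the adropin and 0.915 to 1.71 CPM in the saline group, a difference in mean log2 sum of 0.52. The summed 8 other 7SL genes spanned 0.704 to 2.76 and 0.584 to 1.15 CPM, a difference of 0.47. These differences were 0.39 and 0.28 without mice 1_3 and 5_5. In both sums 6 of 8 adropin mice lay above every saline mouse. This grouping was made after seeing the data and is given without a test. The relatives were picked by likeness to Rn7sk or Rn7s1, so their counts are not independent of the members.

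Other classes of RNA, all noncoding except the histone genes, were summed per mouse, with Gm42418 as a class by itself. They were compared by an exact permutation test, two-sided, over the 12870 ways to divide the mice, with adjustment over 8 classes. No class had an adjusted p below 0.05. Gm42418 had a log2 difference of 0.47 (exact permutation, adjusted p = 0.545). The other 576 misc_RNA and ribozyme genes had 11.2 ± 1.92 CPM in the adropin and 9.76 ± 1.57 in the saline group (SD, n = 8 each), a log2 difference of 0.20 (exact permutation, adjusted p = 0.545). They included the 34 other 7SK genes, with mean sums of 2.02 and 1.39 CPM, and the 8 other 7SL genes, with 1.41 and 0.966 CPM. Small nuclear RNAs differed by 0.01 (exact permutation, adjusted p = 0.961), small nucleolar and Cajal body RNAs by 0.02 and annotated rRNA genes by 0.03 (both exact permutation, adjusted p = 0.952). Replication-dependent histone genes, whose mRNAs typically lack a poly(A) tail, had 72.0 ± 8.42 and 77.0 ± 9.32 CPM, a difference of -0.10 (exact permutation, adjusted p = 0.545). Hist1h2bc made up 26.0% of their counts, and whether the transcripts counted carried a tail was not tested. Mitochondrial rRNA differed by -0.17 (exact permutation, adjusted p = 0.599), and by -0.24 to -0.07 with 1 mouse left out. Mitochondrial tRNA was the furthest apart, with 13.0 ± 4.79 CPM in the adropin and 20.2 ± 6.77 in the saline group and a log2 difference of -0.67, with an exact permutation p of 0.0174 that became 0.139 on adjustment, and mt-Tp made up 88.8% of its counts.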

How the data were processed

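RNA from brain tissue of 16 mice was enriched with oligo-dT beads, primed with random hexamers and sequenced as paired reads of 150 bases. STAR alignment was to Ensembl release 76 (GRCm38). The values deposited by the authors are raw featureCounts counts, 1 per gene and mouse, of reads with a unique and unambiguous place. Strand setting is not given in the sources used here. The deposited CPM were not used.

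From the counts, 276 repeated entries of 40757 were dropped. The filter asked for over 1 CPM in 7 mice or more, 355 rRNA genes were left out, and 14949 genes were compared by edgeR 4.0.16 (R 4.3.3, TMM factors, quasi-likelihood test, Benjamini-Hochberg adjustment). SEs were derived from the F statistic. Correlations used log2 CPM with a prior count of 2. Sequences came from GENCODE M21 transcripts (GRCm38) and were aligned locally in Biopython 1.88 (match 2, mismatch -3, gap -5 to open, -2 to extend). With no genome sequence at hand, unique windows were counted among annotated transcripts, and the search for a terminator after each 3′ end was not run. Statistics were tested on simulated data. Permutation tests planned for the members against total counts and Gm42418 are not reported, since both measures belong to the rule for the members. 1 gene and some sequences of members are not reported here.

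The members, companion lists and tests were chosen with earlier results of these data known. Genes named are the members, Gm42418, and the 3 genes outside the members most like Rn7sk, Rn7s2 and Rpph1. In each companion list they are those with an unadjusted p below 0.05, or otherwise the most abundant and the partner proteins. Others are said to be chosen later or serve as examples. Labels do not say what the number pairs of the mice mean, and p-values measure the spread between these mice. Alternatives were DESeq2 1.42.0, limma-voom (limma 3.58.1), other scalings and filters, rRNA genes kept, covariates, label numbers as blocks and leaving out mice.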

Additional observations from a re-analysis of the deposited data

Results flagged for a closer look

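Of 38 groups of 8 values examined (10 members, 8 RNA classes and total counts, in each group), 6 had a sample far from the others by Dixon's gap. All 6 are members, whose levels in these mice entered their choice, so the gaps are a description and the 1 in 20 groups that chance alone marks is no yardstick for them. In 5 of the 6 it was the adropin mouse 1_3, for genes that share sequence or libraries. Rn7s1 was 31.5 CPM there and 15.3 in the next mouse. Rn7s2 was 38.5 CPM against 19.1, Rn7s6 24.8 against 11.2, Rpph1 11.5 against 5.90 and Gm24514 5.63 against 3.21. In the saline group mouse 5_3 had 7.84 CPM of Gm26035, against 5.07 in the next mouse. Mouse 1_3 also had the largest library, with 70314050 counts, and mouse 5_3 the highest Gm42418 of the saline group, 3.26% of its counts. What part these had in the values was not tested.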

How the results depend on the processing

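The alternative fits of the members use the contrast that chose them, so their direction says nothing about stability, and they are given as values. Their log2 fold changes lay between 0.27 and 1.47 (280 values over 28 fits). The number past the rule was 10 in the main comparison, 6 with Gm42418 as a covariate, 7 with total counts as a covariate, 8 with either label number as a block, 9 with limma-voom and 2 without adropin mice 1_3 and 5_5, which was chosen after seeing the data. Leaving out 1 mouse at a time gave 8 to 10 and a median of 0.73 to 1.10, the lowest without mouse 1_3. Of the 14949 genes tested, 17 were increased by the rule in the main comparison and 4 without mice 1_3 and 5_5. The number was 6 and 8 with the covariates, 34 and 11 with the blocks, and 10 to 48 with 1 mouse left out. With every gene with at least 1 count kept, 30210 genes were tested and 569 were increased. Of the 58 protein genes, 1 (Hexim1) had an unadjusted p below 0.05 with library size only, DESeq2 size factors, DESeq2, the total count covariate or without mice 1_3 and 5_5, and 0 to 2 with 1 mouse left out. The median r of the members with total counts, a description, was 0.734 over all mice, 0.46 in the saline mice alone, 0.423 without mice 1_3 and 5_5, and 0.582 (without mouse 1_3) to 0.828 with 1 mouse left out. With Gm42418 it was 0.707, and 0.638 to 0.755 under the alternatives run. Class differences near 0 changed sign: small nuclear RNAs to -0.01 with library size only (-0.05 to 0.09 with 1 mouse left out), small nucleolar RNAs to -0.03 without their most abundant gene (-0.02 to 0.07), and rRNA genes to -0.03 without mice 1_3 and 5_5 (-0.02 to 0.09). Mitochondrial tRNA lay between -0.78 and -0.52 with 1 mouse left out, and passed the adjusted threshold at -0.78 (without mouse 4_3). The cause of these shifts was not tested. Replicate numbers follow accession order and pair no mice, so the blocks above use the label numbers, whose meaning the labels do not give. Mice whose label number occurs in 1 group only carry none of the contrast in these block fits. Raw counts in saline mice of 27 to 131 for Rpph1, 28 to 87 for Gm24514 and 28 to 106 for Gm24146 limit their precision.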
